A study of Mus musculus with 12 samples.

Results

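The genes described here carry iron into cells, hold it, let it out again, or set the balance between those steps: Fth1, Ftl1, Ireb2, Tfrc, Slc11a2, Slc39a14, Steap3, Slc40a1, Cp and Trf. They were picked by gene symbol from the deposited expression table, in which all 10 of 10 were found among 52636 genes. The study sequenced kidney RNA of C57BL/6 wild-type males, 8 weeks old, with 3 libraries in each of 4 groups. The cisplatin+PCN group received both drugs, the cisplatin group received corn oil and cisplatin, the PCN group received PCN and saline, and the control group received corn oil and saline. Cisplatin, a platinum chemotherapy drug that injures the renal tubule, was given as a single intraperitoneal dose of 20 mg/kg. PCN, short for pregnenolone carbonitrile, is an activator of the nuclear receptor PXR in rodents and was gavaged daily at 40 mg/kg. Dosing with PCN or oil began 4 days ahead of cisplatin and went on for another 3 days, and kidneys were taken 4 days after the cisplatin injection. The treatment text names the cisplatin group both among the mice pretreated with PCN and among those given oil, so each library's group follows its title. The question the design addresses is how cisplatin alters the kidney, and whether PCN alters that response.

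Free iron is toxic because it feeds the formation of oxygen radicals, so cells keep it bound. Transferrin, encoded by Trf, carries iron in plasma and enters cells through the transferrin receptor (Tfrc). In endosomes the iron is reduced by Steap3 and carried into the cytosol by the transporter DMT1 (Slc11a2), while ZIP14 (Slc39a14) takes up iron that is not bound to transferrin. The kidney tubule reclaims iron from the filtrate. Iron is stored in ferritin, a shell of heavy (Fth1) and light (Ftl1) chains, and it leaves cells through ferroportin (Slc40a1), helped by the ferroxidase ceruloplasmin (Cp). The iron regulatory proteins, encoded by Aco1 and Ireb2, bind a hairpin called the iron-responsive element in certain mRNAs when iron is low. Bound near the start of an mRNA the proteins block its translation, and bound near its end they protect it from decay.

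These hairpins are printed because they mark a way in which iron can act on an mRNA. The search looked for C, 5 bases, CAGTGN and 5 bases that pair with the first 5, by Watson-Crick or G-U pairs, on the transcript strand. It covered untranslated regions of protein-coding transcripts in GENCODE release M21 on GRCm38. It found 7 hairpins in 4 of the 10 genes. The capitals mark the CAGTGN loop, and each sequence is read 5′ to 3′ on the strand of its gene.
Fth1, 5′ untranslated region, chr19:9982732-9982760, plus strand: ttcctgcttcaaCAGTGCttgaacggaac
Ftl1, 5′ untranslated region, chr7:45459779-45459807, minus strand: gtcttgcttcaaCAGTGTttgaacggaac
Slc40a1, 5′ untranslated region, chr1:45925465-45925493, minus strand: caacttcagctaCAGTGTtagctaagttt
Tfrc, 3′ untranslated region, chr16:32631219-32631247, plus strand: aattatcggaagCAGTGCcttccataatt
Tfrc, 3′ untranslated region, chr16:32631598-32631626, plus strand: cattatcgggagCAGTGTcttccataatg
Tfrc, 3′ untranslated region, chr16:32631663-32631691, plus strand: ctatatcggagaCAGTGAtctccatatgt
Tfrc, 3′ untranslated region, chr16:32631710-32631738, plus strand: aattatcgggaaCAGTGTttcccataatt
Fth1 and Ftl1 have the same letters after the loop, and Tfrc carries 4 hairpins, all in its 3′ untranslated region. Such a hairpin was found in the 5′ untranslated region of 31 of 20572 genes (0.151%) and in the 3′ untranslated region of 129 of 20991 genes (0.615%). For the other genes the search says only that these letters and pairs are not in the annotated windows. A hairpin with another loop or an imperfect stem would be missed, so no gene is shown to lack an iron-responsive element.

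Levels are FPKM, fragments counted on a gene over its length and over a library total. The unit is per length, so levels of different genes can be set side by side. Reads assigned to genes, recovered from the FPKM steps, ranged from 18914607 to 26530485 per library, and 1 FPKM equalled 18.7 to 27.2 reads per kilobase. The library total implied by the FPKM was 0.952 to 1.11 times the assigned reads, so it was not their sum. It was below them in every control and PCN library and above them in every cisplatin library. In cisplatin+PCN replicates 1, 2 and 3 it was 0.952, 1.11 and 1.07 times them. Shares of assigned reads can thus order libraries otherwise than FPKM. The summed FPKM of 8 proximal tubule markers was 3734 to 9264 in cisplatin+PCN libraries, 3788 to 4280 in cisplatin libraries, 30257 to 33958 in PCN libraries and 28098 to 32804 in control libraries. All 8 were detected in every library and all 8 fell in cisplatin against control. Replicate 1 of the cisplatin+PCN group stood apart from its group, with the sum of 9264 against 3734 and 4265 in replicates 2 and 3. The sum mostly follows Kap, 75.9% to 91.5% of it in each library; without Kap the other 7 markers summed to 1557, 797 and 1027 in replicates 1, 2 and 3 of that group, 683 to 816 in cisplatin libraries, 2926 to 2988 in PCN libraries and 2772 to 3046 in control libraries. In bulk tissue, fewer cells of a type and less RNA per cell cannot be told apart.

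In control kidneys Fth1 was the highest of the 10 genes, followed by Ftl1, Tfrc, Slc11a2, Ireb2, Slc40a1, Slc39a14, Cp, Steap3 and Trf. Control libraries overlapped between Tfrc and Slc11a2, between Slc40a1 and Slc39a14, and between Slc39a14 and Cp, so the order of those neighbours is not fixed. The other neighbours in that order did not overlap.

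**Figure D1:**
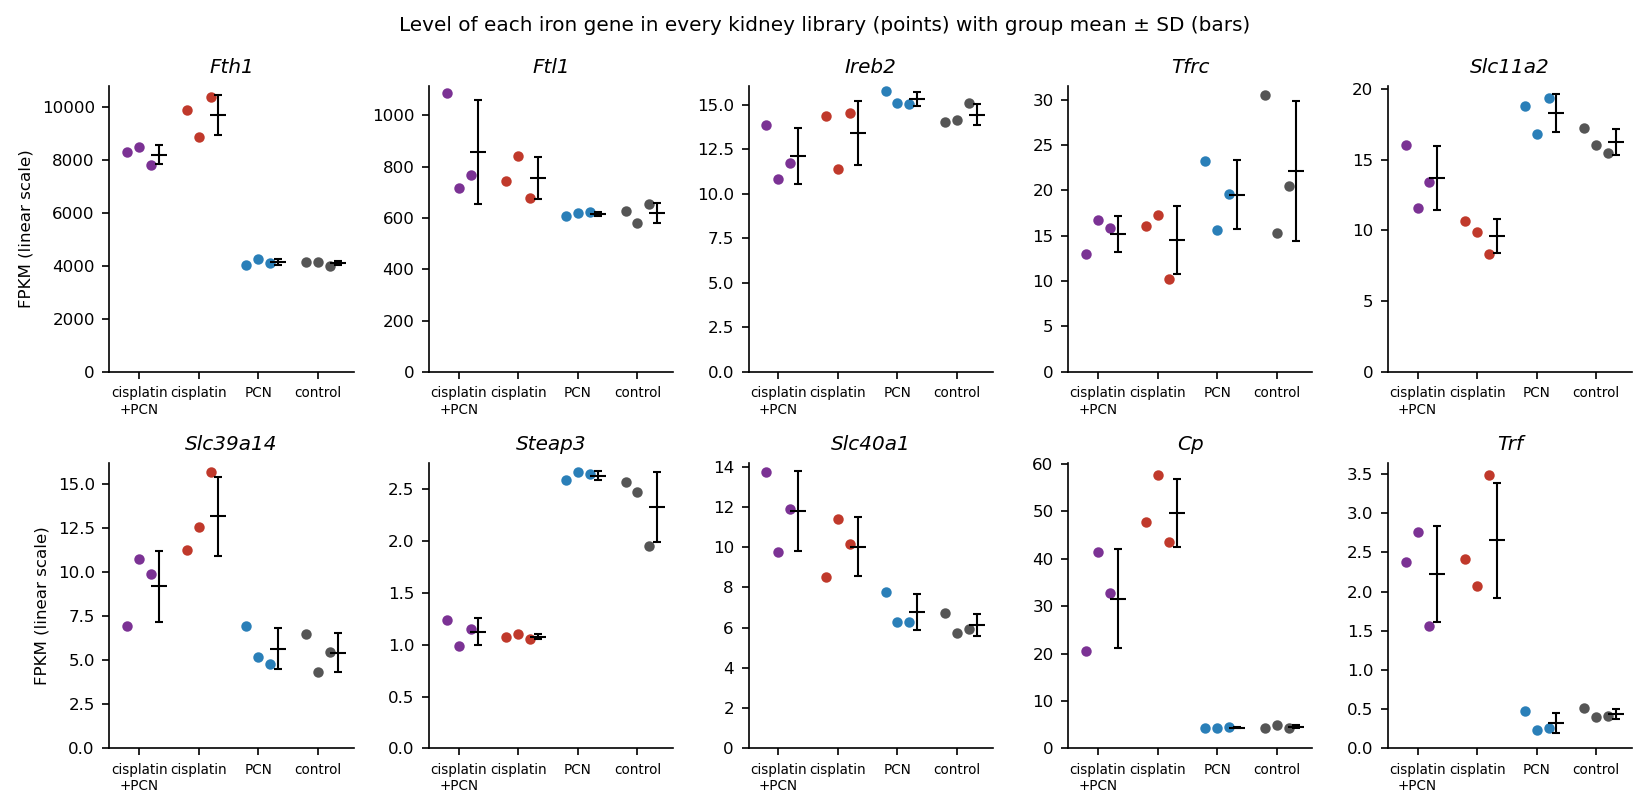
FPKM of the 10 iron genes in each of the 12 libraries, on linear axes that start at 0 and differ between panels, with points for libraries and bars for the group mean ± SD (n = 3). Fth1, Ftl1, Slc40a1, Cp and Trf are higher in every library that received cisplatin than in any library that did not, and Steap3 is lower in all of them. The share of all genes that separate in this way was not counted.

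After cisplatin, 5 of the 10 genes rose against control (Fth1, Cp, Trf, Slc39a14 and Slc40a1), 2 fell (Slc11a2 and Steap3), and 3 did not pass (Ftl1, Tfrc and Ireb2). Each gene was tested with limma on log2(FPKM + 1), with p-values adjusted by Benjamini and Hochberg over 13540 genes and a threshold of 0.05. Of all genes tested, 63.9% passed in this comparison, with 32.0% higher and 31.9% lower, so 7 of 10 is a share near that of all genes. By limma-voom on reads recovered from the FPKM, 4858 genes were higher and 3646 lower. The median difference of the 10 genes was 0.45, beside 0.01 over all genes tested. Labels do not say that each library came from a different mouse, so these p-values measure the spread between libraries, which may be technical.

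The storage genes were the most abundant of the 10, and in cisplatin against control the heavy chain rose while the light chain did not pass. Fth1 is at chr19:9982703-9985092 on the plus strand. Its FPKM was 8313, 8481 and 7801 in cisplatin+PCN libraries, 9882, 8851 and 10361 in cisplatin libraries, 4049.7, 4270.5 and 4123 in PCN libraries, and 4153, 4154 and 4008 in control libraries. Every library with cisplatin lay above every library without it. Fth1 averaged 9698 ± 771 FPKM in cisplatin libraries and 4105 ± 83.7 FPKM in control libraries (SD, n = 3 each), a ratio of 2.36. It rose by 1.24 on the log2 scale (SE 0.08, limma adjusted p = 5.69e-07). Fth1 took 0.871%, 0.830% and 0.921% of the reads assigned to genes in cisplatin libraries, against 0.352%, 0.350% and 0.341% in control libraries. In cisplatin+PCN replicates 1, 2 and 3 it took 0.686%, 0.814% and 0.721%. Replicate 1 was thus below replicate 3 by read share and above it by FPKM.

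Ftl1, at chr7:45457944-45459884 on the minus strand, encodes the light chain, which helps iron to mineralise in the shell. Its FPKM was 1089, 715 and 768 in cisplatin+PCN libraries, 744, 843 and 679 in cisplatin libraries, 607, 620.0 and 622 in PCN libraries, and 626, 579 and 656 in control libraries. Cisplatin and control libraries did not overlap, but the lowest cisplatin library and the highest control library were close. Ftl1 averaged 755 ± 82.8 FPKM in cisplatin libraries and 620.4 ± 38.5 FPKM in control libraries (SD, n = 3 each). The difference was 0.28 (SE 0.14, 95% interval -0.03 to 0.59) and did not pass (limma adjusted p = 0.107). Without replicate 1 of the cisplatin+PCN group the same difference had a limma adjusted p of 0.0128, and it also passed in a fit of the groups compared alone (limma adjusted p = 0.0404) and with limma-voom (0.37, adjusted p = 0.0129). The Ftl1-like gene Ftl1-ps1 was counted at 18.7 to 34.2 FPKM, and the sources used here do not give how reads were divided among near-identical ferritin copies, which leaves ferritin values uncertain in that respect.

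Set over each other, the FPKM of Fth1 and Ftl1 gave ratios of 7.63, 11.9 and 10.2 in cisplatin+PCN libraries, 13.3, 10.5 and 15.3 in cisplatin libraries, 6.67, 6.89 and 6.63 in PCN libraries, and 6.64, 7.17 and 6.11 in control libraries. The ratio averaged 13.0 ± 2.40 in cisplatin libraries and 6.64 ± 0.529 in control libraries (SD, n = 3 each). The groups did not overlap, and a two-sided exact permutation test gave p = 0.1, the smallest value that 3 libraries against 3 allow. The ratio averaged 9.88 ± 2.13 in cisplatin+PCN libraries and 6.73 ± 0.138 in PCN libraries (SD, n = 3 each, exact permutation p = 0.1). Between the cisplatin+PCN and cisplatin groups the ratios overlapped (exact permutation p = 0.2).

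**Figure D2:**
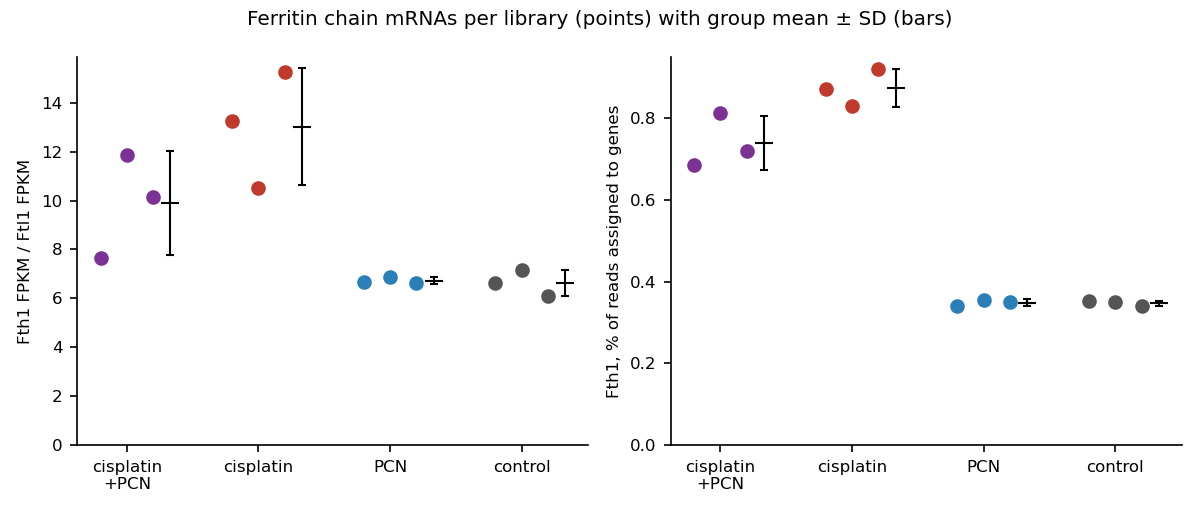
The ratio of Fth1 to Ftl1 FPKM (left) and the share of reads assigned to genes that Fth1 took, in percent (right), with points for libraries and bars for the group mean ± SD (n = 3). Every library with cisplatin lies above the PCN ratios, between 6.63 and 6.89, and the control ratios, between 6.11 and 7.17.

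Ireb2, at chr9:54863789-54912530 on the plus strand, encodes iron regulatory protein 2. Its FPKM was 13.9, 10.8 and 11.7 in cisplatin+PCN libraries, 14.3, 11.4 and 14.5 in cisplatin libraries, 15.8, 15.1 and 15.0 in PCN libraries, and 14.0, 14.1 and 15.1 in control libraries. Cisplatin and control libraries overlapped, and the difference of -0.11 (SE 0.10, 95% interval -0.33 to 0.12) did not pass (limma adjusted p = 0.383). That interval allows a change of up to 0.33 downward on the log2 scale.

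Of the uptake genes, Slc39a14 rose in cisplatin against control, Slc11a2 and Steap3 fell, and Tfrc did not pass. Tfrc, at chr16:32608920-32632794 on the plus strand, had 13.0, 16.8 and 15.8 FPKM in cisplatin+PCN libraries, 16.0, 17.2 and 10.2 FPKM in cisplatin libraries, 23.2, 15.7 and 19.6 FPKM in PCN libraries, and 30.5, 15.3 and 20.4 FPKM in control libraries. Control libraries were the most spread, and cisplatin libraries overlapped them. Tfrc averaged 14.5 ± 3.74 FPKM in cisplatin libraries and 22.1 ± 7.70 FPKM in control libraries (SD, n = 3 each), a difference of -0.55 (SE 0.25, 95% interval -1.10 to -0.01) that did not pass (limma adjusted p = 0.0691). Its size moved with single libraries of both groups. Without cisplatin replicate 2 it was -0.69 (limma adjusted p = 0.0484), and without cisplatin replicate 3 it was -0.34 (limma adjusted p = 0.263). Without control replicate 1 it was -0.30 (limma adjusted p = 0.272), and without control replicate 2 it was -0.78 (limma adjusted p = 0.0192).

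Erythroid precursors carry the receptor at high density, and their transcripts differed widely between these groups. The summed FPKM of 7 erythroid genes was 2.87, 3.92 and 4.42 in cisplatin+PCN libraries and 7.95, 1.95 and 1.91 in cisplatin libraries. It was 552, 444 and 347.5 in PCN libraries, and 1198, 329.9 and 446 in control libraries. Globins led the sum in the groups without cisplatin. In cisplatin+PCN libraries the sum mostly followed Slc4a1, at a mean of 3.28 FPKM beside 0.103 FPKM for Hbb-bs. In cisplatin libraries these genes averaged 1.16 and 1.26 FPKM. Slc4a1 is also a gene of kidney intercalated cells. All 6 of the erythroid genes tested fell in cisplatin against control. Testing needed an FPKM of at least 1 in at least 3 libraries. Globins and Alas2 averaged 0 to 1.26 FPKM in the groups with cisplatin. They could meet this minimum only with libraries that lacked cisplatin, so a fall was favoured. The control library with the highest erythroid sum, replicate 1, also had the highest Tfrc, as did replicate 1 of the PCN group. In the cisplatin+PCN and cisplatin groups the library with the highest erythroid sum was not the one with the highest Tfrc. The sums there were low, at 1.91 to 7.95 FPKM, so their ranking says little about blood. In the PCN group replicate 3, with the lowest sum, had more Tfrc than replicate 2. The part of erythroid transcripts in the Tfrc values was not tested.

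**Figure D3:**
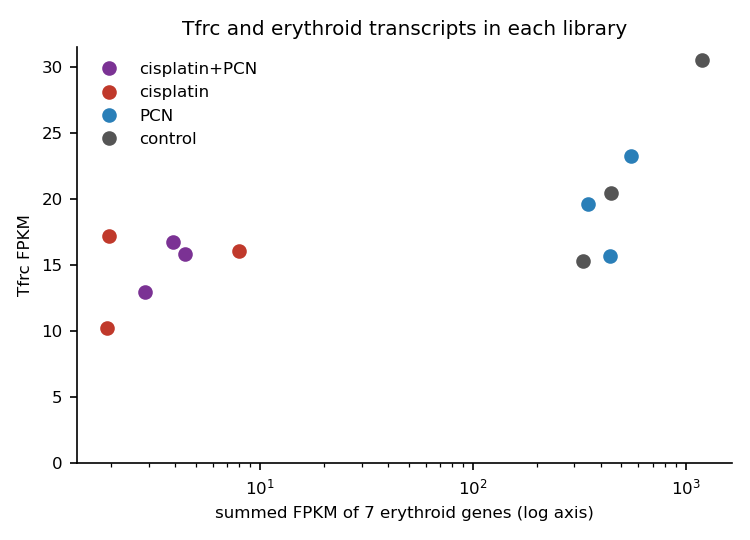
Tfrc FPKM (linear axis from 0) against the summed FPKM of 7 erythroid genes (log axis), 1 point per library, coloured by group. The libraries with cisplatin sit at sums of 1.91 to 7.95 and Tfrc of 10.2 to 17.2 FPKM, and the libraries without it sit at sums of 329.9 to 1198 and Tfrc of 15.3 to 30.5 FPKM.

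Slc11a2, at chr15:100387898-100425072 on the minus strand, encodes DMT1. It had 16.1, 11.6 and 13.4 FPKM in cisplatin+PCN libraries, 10.7, 9.89 and 8.31 FPKM in cisplatin libraries, 18.8, 16.8 and 19.3 FPKM in PCN libraries, and 17.2, 16.0 and 15.5 FPKM in control libraries. Every cisplatin library lay below every control library. Slc11a2 averaged 9.63 ± 1.20 FPKM in cisplatin libraries and 16.2 ± 0.906 FPKM in control libraries (SD, n = 3 each), a ratio of 0.592. It fell by 0.70 on the log2 scale (SE 0.12, limma adjusted p = 0.000308).

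Slc39a14, at chr14:70303469-70351425 on the minus strand, moved the other way. It had 6.92, 10.7 and 9.91 FPKM in cisplatin+PCN libraries, 11.3, 12.6 and 15.7 FPKM in cisplatin libraries, 6.96, 5.20 and 4.79 FPKM in PCN libraries, and 6.51, 4.33 and 5.45 FPKM in control libraries. All cisplatin libraries were above all control libraries. Slc39a14 averaged 13.2 ± 2.25 FPKM in cisplatin libraries and 5.43 ± 1.09 FPKM in control libraries (SD, n = 3 each). It rose by 1.14 on the log2 scale (SE 0.19, limma adjusted p = 0.000284).

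Steap3, at chr1:120190757-120272705 on the minus strand, is the endosomal reductase. It had 1.24, 0.983 and 1.15 FPKM in cisplatin+PCN libraries, 1.07, 1.11 and 1.05 FPKM in cisplatin libraries, 2.58, 2.66 and 2.65 FPKM in PCN libraries, and 2.57, 2.47 and 1.95 FPKM in control libraries. Libraries with and without cisplatin did not overlap. Steap3 averaged 1.08 ± 0.0268 FPKM in cisplatin libraries and 2.33 ± 0.335 FPKM in control libraries (SD, n = 3 each), a ratio of 0.462. It fell by 0.68 on the log2(FPKM + 1) scale (SE 0.08, limma adjusted p = 4.30e-05), a scale that understates changes of genes as low as this, which had 118 to 338 reads per library. The falls of Slc11a2 and Steap3 stood beside the fall of all 8 proximal tubule markers, whose median difference was -2.85. Other segments changed too. Of the distal convoluted tubule markers 2 of 2 fell, with a median of -3.38, Slc12a3 at -2.87 and Pvalb at -3.88. Pvalb averaged 0.0589 FPKM in cisplatin libraries and 0.229 FPKM in cisplatin+PCN libraries. It could meet the minimum for testing only with libraries that lacked cisplatin, so its fall was favoured. Among 3 thick ascending limb markers 2 fell. Of 3 collecting duct markers 1 rose and 1 fell. The part of these segments in the Slc11a2 and Steap3 results was not tested.

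Of the export genes, Slc40a1, at chr1:45908068-45926523 on the minus strand, encodes ferroportin. It had 13.7, 9.77 and 11.9 FPKM in cisplatin+PCN libraries, 8.51, 11.4 and 10.2 FPKM in cisplatin libraries, 7.78, 6.27 and 6.28 FPKM in PCN libraries, and 6.74, 5.73 and 5.91 FPKM in control libraries. The libraries with cisplatin were all above those without it. Slc40a1 averaged 10.03 ± 1.46 FPKM in cisplatin libraries and 6.13 ± 0.536 FPKM in control libraries (SD, n = 3 each), a ratio of 1.64. It rose by 0.62 on the log2 scale (SE 0.13, limma adjusted p = 0.00172). Macrophages that recycle red cells also carry ferroportin, and the summed FPKM of 10 macrophage markers was 63.9 to 115 in cisplatin+PCN libraries, 95.0 to 139 in cisplatin libraries, 70.5 to 81.1 in PCN libraries and 81.9 to 100.2 in control libraries. The library with the highest Slc40a1, replicate 1 of the cisplatin+PCN group, had the lowest macrophage sum. Of the 7 macrophage markers tested, 2 rose in cisplatin against control, 1 fell and 4 did not pass, and their part in the Slc40a1 result was not tested.

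Cp, at chr3:19957054-20009145 on the plus strand, had the largest difference of the 10 genes. Its FPKM was 20.6, 41.4 and 32.7 in cisplatin+PCN libraries, 47.7, 57.6 and 43.5 in cisplatin libraries, 4.35, 4.29 and 4.48 in PCN libraries, and 4.38, 4.97 and 4.31 in control libraries. The lowest library with cisplatin was far above the highest library without it. Cp averaged 49.6 ± 7.24 FPKM in cisplatin libraries and 4.55 ± 0.366 FPKM in control libraries (SD, n = 3 each), a ratio of 10.9. It rose by 3.18 on the log2 scale (SE 0.20, limma adjusted p = 3.09e-07). Cp overlaps Hps3 on the opposite strand, which had 3.77 to 6.04 FPKM over the 12 libraries. The sources used here do not say whether strand was used in counting, so reads of the pair cannot be told apart. The same holds for Slc11a2 with Gm5475, which had at most 0.660 FPKM, and for Ftl1 with Gm10252, which had at most 1.59 FPKM.

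Trf, at chr9:103204001-103230444 on the minus strand, was the lowest of the genes in control kidneys. It had 2.37, 2.76 and 1.56 FPKM in cisplatin+PCN libraries, 2.41, 2.07 and 3.48 FPKM in cisplatin libraries, 0.474, 0.230 and 0.265 FPKM in PCN libraries, and 0.515, 0.396 and 0.418 FPKM in control libraries. It met the expression minimum, an FPKM of at least 1 in at least 3 libraries, only through the 6 libraries with cisplatin, so a call in that direction was favoured. Trf averaged 2.66 ± 0.736 FPKM in cisplatin libraries and 0.443 ± 0.0635 FPKM in control libraries (SD, n = 3 each), a ratio of 5.99. It rose by 1.32 on the log2(FPKM + 1) scale (SE 0.16, limma adjusted p = 4.01e-05), on 15 to 315 reads per library. Liver makes most plasma transferrin and ceruloplasmin, and the summed FPKM of 7 hepatocyte markers was 63.8 to 90.6 in cisplatin libraries and 102 to 122 in control libraries, with 1 of 6 tested markers higher, 3 lower and 2 not passed. Ttr made up 47.2% to 67.9% of that sum in control libraries and 14.2% to 21.3% in cisplatin libraries. Without Ttr the other 6 markers summed to 52.3 to 77.8 FPKM in cisplatin libraries and 32.9 to 63.4 FPKM in control libraries. Of those 6, Apob and Serpina1a had the highest means in both groups. Apob rose by 0.58 in cisplatin against control, and Serpina1a did not pass. Alb fell by 1.92, averaging 0.527 FPKM in cisplatin libraries and 5.38 FPKM in control libraries (limma adjusted p = 0.000702). Apoa2 fell by 0.97. The part of liver transcripts in the Cp and Trf values was not tested.

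**Figure D4:**
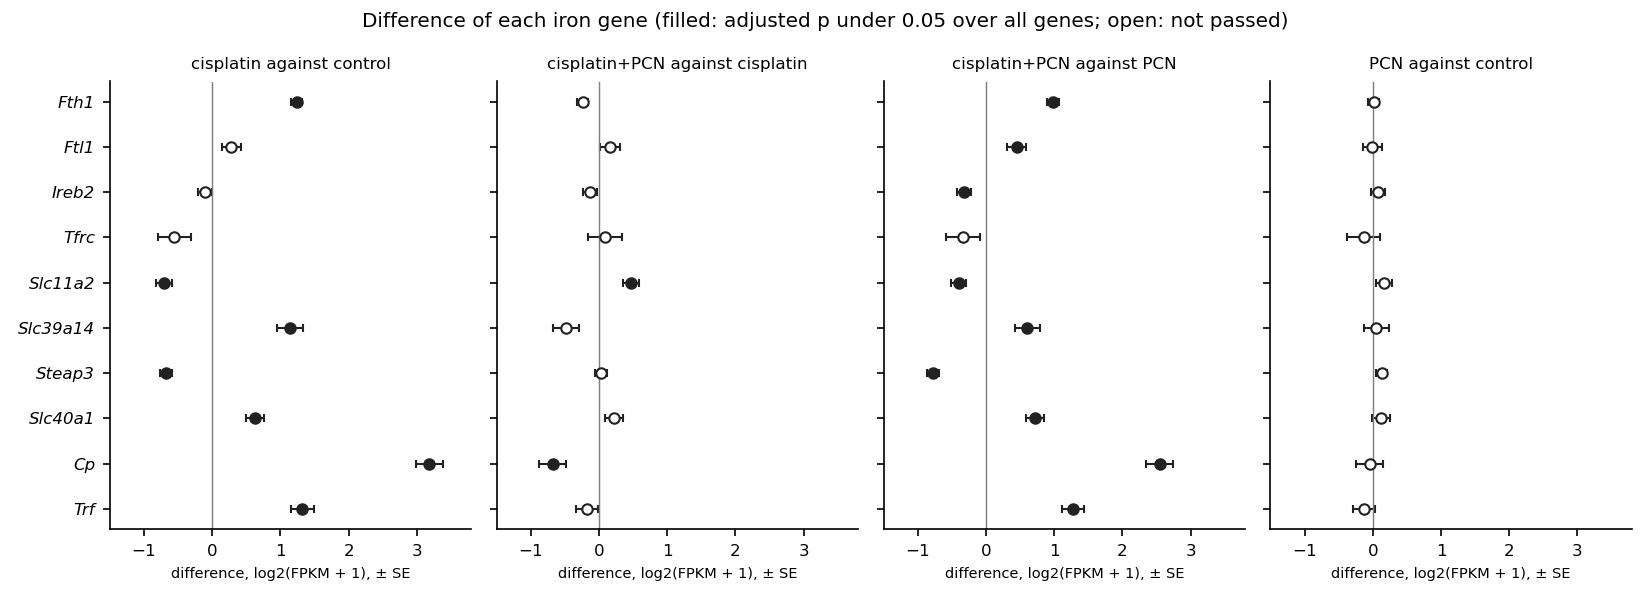
Difference of each gene in log2(FPKM + 1), with bars for ± SE, in 4 comparisons, with filled points for genes that passed the limma threshold and open points for those that did not. Cp lies farthest to the right in both comparisons that add cisplatin, at 3.18 and 2.55, and all 10 genes lie between -0.13 and 0.16 in PCN against control.

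When PCN was given with cisplatin, 2 of the 10 genes passed against cisplatin: Slc11a2 was higher and Cp was lower. Over all genes 15.6% passed, with 7.97% higher and 7.61% lower, so 1 gene in each direction is near the background. That background of 2110 genes moved with the setting: it was 1 gene in a fit of the groups compared alone, and 530 without cisplatin replicate 3, 601 without cisplatin+PCN replicate 3 and 3365 without cisplatin replicate 2. The median difference of the 10 genes was -0.05, beside 0 over all genes tested.

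Slc11a2 averaged 13.7 ± 2.23 FPKM in cisplatin+PCN libraries and 9.63 ± 1.20 FPKM in cisplatin libraries (SD, n = 3 each), a ratio of 1.42. The groups did not overlap, and it rose by 0.46 on the log2 scale (SE 0.12, limma adjusted p = 0.0259). The call was lost without cisplatin replicate 3 (limma adjusted p = 0.0951), cisplatin+PCN replicate 1 (limma adjusted p = 0.0663) or cisplatin+PCN replicate 3 (limma adjusted p = 0.0714). Replicate 1, with the highest Slc11a2 of its group at 16.1 FPKM, was also the library with the proximal tubule sum of 9264; without it the difference was 0.35. The call was also lost with no filter on low values (limma adjusted p = 0.0604) and in a fit of the groups compared alone (limma adjusted p = 0.148). Of the 8 proximal tubule markers, 5 rose in cisplatin+PCN against cisplatin and 3 did not pass. In the same comparison 1 of 2 distal convoluted tubule markers rose, and 2 of 3 collecting duct markers rose while 1 fell. The 3 thick ascending limb markers did not pass. The part of these segments in the Slc11a2 result was not tested.

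Cp averaged 31.6 ± 10.4 FPKM in cisplatin+PCN libraries and 49.6 ± 7.24 FPKM in cisplatin libraries (SD, n = 3 each), a ratio of 0.636. It fell by 0.68 on the log2 scale (SE 0.20, limma adjusted p = 0.0410), with groups that did not overlap. Without cisplatin+PCN replicate 1, the lowest library with cisplatin at 20.6 FPKM, the difference was -0.41 (limma adjusted p = 0.0644). Of the 12 libraries left out in turn, only the omission of cisplatin+PCN replicate 2 kept the call, and the others gave limma adjusted p from 0.0551 to 0.0874. It was also lost with no filter on low values (limma adjusted p = 0.0974), in a fit of the groups compared alone (limma adjusted p = 0.182) and with limma-voom (adjusted p = 0.0565).

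Fth1 and Slc39a14 were also lower in every cisplatin+PCN library than in any cisplatin library, and neither passed. The share of all genes that separate in this way was not counted, so nothing is read from the separation. Fth1 averaged 8198 ± 354 FPKM in cisplatin+PCN libraries and 9698 ± 771 FPKM in cisplatin libraries (SD, n = 3 each), a difference of -0.24 (SE 0.08, 95% interval -0.42 to -0.06, limma adjusted p = 0.0742). It passed without cisplatin replicate 2 (limma adjusted p = 0.0414) or cisplatin+PCN replicate 2 (limma adjusted p = 0.0492). Slc39a14 averaged 9.19 ± 2.02 FPKM in cisplatin+PCN libraries and 13.2 ± 2.25 FPKM in cisplatin libraries (SD, n = 3 each), a difference of -0.48 (SE 0.19, 95% interval -0.89 to -0.08, limma adjusted p = 0.0990). Without cisplatin+PCN replicate 1 it was -0.31 (limma adjusted p = 0.257). The remaining 6 genes had differences from -0.18 for Trf to 0.21 for Slc40a1. Their intervals still hold changes of some size, such as -0.45 to 0.63 for Tfrc.

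Against PCN alone, cisplatin+PCN kidneys had 6 genes higher (Fth1, Ftl1, Slc39a14, Slc40a1, Cp and Trf), 3 lower (Slc11a2, Ireb2 and Steap3), and Tfrc not passed. Over all genes 46.9% passed, with 23.5% higher (3178 genes) and 23.4% lower (3174 genes). With limma-voom on the recovered reads the split was 3968 higher and 2437 lower. The median of the 10 genes was 0.53, beside 0.01 over all genes tested.

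Cp averaged 31.6 ± 10.4 FPKM in cisplatin+PCN libraries and 4.37 ± 0.0956 FPKM in PCN libraries (SD, n = 3 each), a rise of 2.55 on the log2 scale (SE 0.20, limma adjusted p = 3.04e-06). Fth1 averaged 8198 ± 354 FPKM in cisplatin+PCN libraries and 4148 ± 112 FPKM in PCN libraries (SD, n = 3 each), a rise of 0.98 (SE 0.08, limma adjusted p = 6.14e-06) that was not called with no filter on low values (limma adjusted p = 0.0784). Trf rose by 1.27 (limma adjusted p = 0.000109) and Slc40a1 by 0.71 (limma adjusted p = 0.00123). Steap3 fell by 0.78 (limma adjusted p = 3.34e-05).

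The remaining 4 genes in that comparison passed by a small margin, and leaving out some single libraries ended each call. Ftl1 averaged 857 ± 203 FPKM in cisplatin+PCN libraries and 616 ± 7.84 FPKM in PCN libraries (SD, n = 3 each), a rise of 0.45 (limma adjusted p = 0.0231). Without cisplatin+PCN replicate 1, at 1089 FPKM, it was 0.27 (limma adjusted p = 0.0382), and without PCN replicate 1, 2 or 3 it was 0.44 to 0.46 and not called (limma adjusted p from 0.0550 to 0.0612), nor with no filter (limma adjusted p = 0.0773) or in a fit of the groups compared alone (limma adjusted p = 0.0682). Ireb2 averaged 12.1 ± 1.56 FPKM in cisplatin+PCN libraries and 15.3 ± 0.411 FPKM in PCN libraries (SD, n = 3 each), a fall of 0.32 (limma adjusted p = 0.0239). That call was lost without cisplatin+PCN replicate 2 or 3 or any PCN replicate (limma adjusted p from 0.0516 to 0.0899), with differences from -0.33 to -0.25. Slc11a2 fell by 0.40 (limma adjusted p = 0.0150), and the call was lost without PCN replicate 3 (-0.36, limma adjusted p = 0.0550) or cisplatin+PCN replicate 2 (-0.30, limma adjusted p = 0.0588). Slc39a14 rose by 0.61 (limma adjusted p = 0.0194) although replicate 1 of each group met at 6.92 FPKM with cisplatin+PCN and 6.96 FPKM with PCN. Its call was lost without PCN replicate 2 or 3 or cisplatin+PCN replicate 2 or 3 (limma adjusted p from 0.0615 to 0.0740), with differences from 0.50 to 0.57.

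Against control, cisplatin+PCN kidneys had 6 genes higher and 1 lower, with Tfrc, Slc11a2 and Ireb2 not passed. Over all genes 46.6% passed, with 23.0% higher (3110 genes) and 23.6% lower (3198 genes); limma-voom gave 3774 higher and 2495 lower. Comparisons with cisplatin share the control libraries, so each gene's values stand side by side here without a measure of likeness. Cp differed by 2.50 in cisplatin+PCN against control (limma adjusted p = 3.66e-06) and by 3.18 in cisplatin against control. Fth1 differed by 0.997 in cisplatin+PCN against control (limma adjusted p = 5.72e-06) and by 1.24 in cisplatin against control. Trf differed by 1.14 in cisplatin+PCN against control (limma adjusted p = 0.000235) and by 1.32 in cisplatin against control. Trf met the expression minimum through the libraries with cisplatin, as given above. Slc39a14 differed by 0.66 in cisplatin+PCN against control (limma adjusted p = 0.0135) and by 1.14 in cisplatin against control. Ftl1 differed by 0.44 in cisplatin+PCN against control (limma adjusted p = 0.0252) and by 0.28 in cisplatin against control. Slc40a1 differed by 0.84 in cisplatin+PCN against control (limma adjusted p = 0.000457) and by 0.62 in cisplatin against control. Without cisplatin+PCN replicate 1, at 1089 FPKM, the Ftl1 difference in cisplatin+PCN against control was 0.26 (limma adjusted p = 0.0433). Steap3 differed by -0.65 in cisplatin+PCN against control (limma adjusted p = 0.000124) and by -0.68 in cisplatin against control. Slc11a2 differed by -0.24 in cisplatin+PCN against control (limma adjusted p = 0.111) and by -0.70 in cisplatin against control. The iron importer DMT1 was thus called in cisplatin against control and not in cisplatin+PCN against control. Without cisplatin+PCN replicate 1, Slc11a2 was called at -0.35 (limma adjusted p = 0.0212) and Ireb2 at -0.33 (limma adjusted p = 0.0179). Ireb2 was also called without cisplatin replicate 2 (limma adjusted p = 0.0308), and Tfrc at -0.69 without control replicate 2 (limma adjusted p = 0.0455). The Ftl1 call was lost without control replicate 1 (limma adjusted p = 0.0557) or 2 (limma adjusted p = 0.0821), with no filter or in a fit of the groups compared alone (limma adjusted p = 0.0832). The Fth1 call was lost with no filter (limma adjusted p = 0.0751), and the Slc39a14 call without control replicate 2 (limma adjusted p = 0.0565) or cisplatin+PCN replicate 2 (limma adjusted p = 0.0538).

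In kidneys without cisplatin, none of the 10 genes passed in PCN against control. No gene of the 13540 was called (0%) by limma, while 438 had an unadjusted p under 0.05, and limma-voom also called 0 with 319 under that level. Of the 10 iron genes, 0 had an unadjusted p under 0.05 by either tool. Differences ran from -0.13 for Tfrc and Trf to 0.16 for Slc11a2, whose 95% interval was -0.09 to 0.42. Fth1 averaged 4148 ± 112 FPKM in PCN libraries and 4105 ± 83.7 FPKM in control libraries (SD, n = 3 each), a difference of 0.01 with a 95% interval of -0.17 to 0.20. Changes inside these intervals were not detectable with 3 libraries a group.

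Whether PCN altered the cisplatin response of a gene was tested directly, as the difference in cisplatin+PCN against PCN minus that in cisplatin against control. Of the 10 genes, 0 passed with limma and 0 with limma-voom, while 0.111% of all genes (15) passed with limma and 68 genes with limma-voom. Over all genes the count was 1057 without cisplatin replicate 2 and 505 without cisplatin+PCN replicate 2. At an unadjusted p under 0.05 there was 1 gene, Cp, by limma and 2 by limma-voom. The Cp value was -0.64 (SE 0.28, limma adjusted p = 0.243), that of Slc39a14 was -0.53 (limma adjusted p = 0.292), that of Fth1 was -0.25 (limma adjusted p = 0.268), and that of Slc11a2 was 0.30 (limma adjusted p = 0.334). Calls that differ between the comparisons above are thus not shown to differ in size.

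Around these genes, 64 other iron and haem genes were listed in 6 roles, of which 60 were in the table under those names and 47 met the expression minimum. In cisplatin against control 17 rose, 21 fell and 9 did not pass, with a median of -0.12; the 38 that passed were 80.9% of those tested, beside 63.9% of all genes. In cisplatin+PCN against cisplatin 8 rose, 5 fell and 34 did not pass, with a median of 0.10; the 13 that passed were 27.7%, beside 15.6% of all genes. Against PCN alone, cisplatin+PCN had 14 higher and 18 lower, 68.1% of those tested beside 46.9% of all genes. The lists were chosen with earlier results known, so nothing is read from these shares. None passed for PCN against control or for the test of a changed response.

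**Figure D5:**
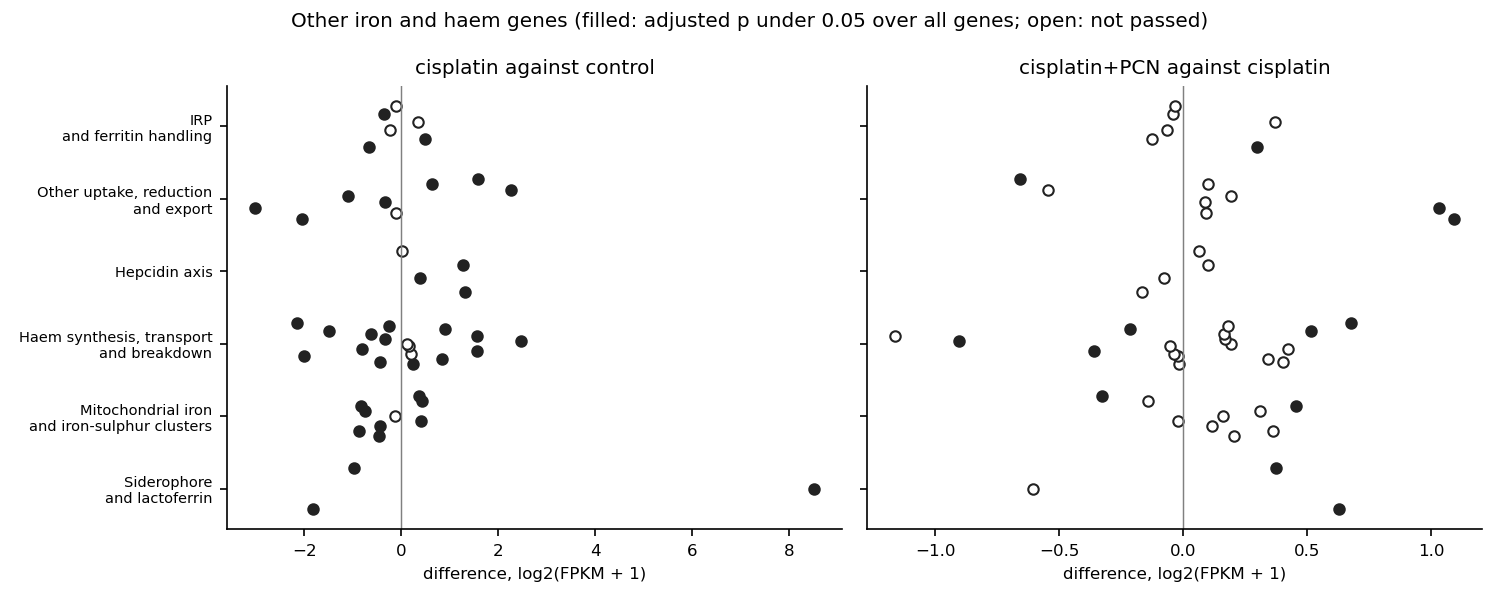
Differences in log2(FPKM + 1) of 47 other iron and haem genes by role, for cisplatin against control (left) and cisplatin+PCN against cisplatin (right, on a narrower axis), with filled points for genes that passed the limma threshold. The siderophore-binding gene Lcn2 stands alone at 8.52 on the left, and most points on the right are open.

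Among regulators and ferritin handling genes, 1 of 6 tested rose in cisplatin against control, 2 fell and 3 did not pass, so that 50% passed, beside 63.9% of all genes. Aco1, which encodes iron regulatory protein 1 and the cytosolic aconitase, averaged 57.9 ± 6.64 FPKM in cisplatin libraries and 92.7 ± 6.35 FPKM in control libraries (SD, n = 3 each), a fall of 0.67 (limma adjusted p = 7.83e-05). Bach1, a haem-sensing repressor, rose by 0.49, and Pcbp1, an iron chaperone for ferritin, fell by 0.37. Ncoa4, the receptor that delivers ferritin to lysosomes for iron release, did not pass there but rose by 0.73 in cisplatin+PCN against PCN (limma adjusted p = 0.0101).

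Other uptake, reduction and export genes split, with 3 of 8 higher (37.5%), 4 lower (50%) and 1 not passed in cisplatin against control, beside 32.0% and 31.9% of all genes. Lrp2 and Cubn encode megalin and cubilin, the receptors with which the proximal tubule takes up filtered proteins, transferrin among them. Lrp2 fell by 3.02 and Cubn by 2.04 in cisplatin against control, and in cisplatin+PCN against cisplatin they rose by 1.03 (limma adjusted p = 0.00747) and 1.09 (limma adjusted p = 0.00706). Steap1 and Steap4 rose by 2.27 and 1.59 in cisplatin against control, while Steap3 fell. Steap1 averaged 24.3 ± 7.83 FPKM in cisplatin libraries and 4.11 ± 0.612 FPKM in control libraries (SD, n = 3 each). Steap4 was lower by 0.66 in cisplatin+PCN against cisplatin (limma adjusted p = 0.0469).

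In the hepcidin axis, which in liver sets the hormone that removes ferroportin from the cell surface, 3 of 4 tested genes rose in cisplatin against control and 1 did not pass, beside 32.0% of all genes higher. Bmp6, the ligand that reports iron to hepatocytes, averaged 39.8 ± 1.52 FPKM in cisplatin libraries and 15.5 ± 2.50 FPKM in control libraries (SD, n = 3 each), a rise of 1.32 (limma adjusted p = 1.84e-06). Hfe, the haemochromatosis protein that pairs with transferrin receptors, averaged 16.1 ± 0.268 FPKM in cisplatin libraries and 6.14 ± 0.835 FPKM in control libraries (SD, n = 3 each), a rise of 1.26 (limma adjusted p = 1.01e-06). Epas1, a hypoxia-inducible factor, rose by 0.38. Hamp, which encodes hepcidin, was below the expression minimum, listed at 0 in every cisplatin library and averaging 0.252 FPKM in control libraries. None of the 4 passed in cisplatin+PCN against cisplatin.

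Of 17 haem genes tested, 6 rose (35.3%), 8 fell (47.1%) and 3 did not pass in cisplatin against control, beside 32.0% and 31.9% of all genes. Hmox1, the oxygenase that frees iron from haem, averaged 53.3 ± 16.5 FPKM in cisplatin+PCN libraries, 99.1 ± 25.7 FPKM in cisplatin libraries, 12.6 ± 1.79 FPKM in PCN libraries and 17.1 ± 3.84 FPKM in control libraries (SD, n = 3 each). It rose by 2.46 in cisplatin against control and was lower by 0.90 in cisplatin+PCN against cisplatin (limma adjusted p = 0.0359). Blvrb, a biliverdin reductase, rose by 1.56 in cisplatin against control and was lower by 0.36 in cisplatin+PCN against cisplatin (limma adjusted p = 0.0286). Uros, an enzyme of haem synthesis, fell by 2.16 in cisplatin against control and was higher by 0.68 in cisplatin+PCN against cisplatin (limma adjusted p = 0.00894). Alas2, the erythroid form of the first haem enzyme, fell by 2.01 beside the erythroid transcripts given above. It met the expression minimum only through the 6 libraries without cisplatin, so a fall was favoured, and the scale understates the change of a gene as low as this. It was the only listed gene outside the 10 in which the hairpin search found a match, in its 5′ untranslated region.

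Of 9 mitochondrial genes of iron and iron-sulphur clusters, 3 rose (33.3%), 5 fell (55.6%) and 1 did not pass in cisplatin against control, beside 32.0% and 31.9% of all genes. The falls were led by Abcb8 at -0.86, Sfxn1 at -0.82, and Nfs1, the cysteine desulphurase of cluster assembly, at -0.76. Of 3 siderophore genes tested, Lcn2 rose and Bdh2 and Slc22a17 fell, too few to set beside those shares. Lcn2, a kidney injury marker that binds siderophores, averaged 717 ± 94.6 FPKM in cisplatin libraries and 0.957 ± 0.216 FPKM in control libraries (SD, n = 3 each). It rose by 8.52 on the log2(FPKM + 1) scale, which understates a change from a level as low as that in control. Bdh2, an enzyme described as making a mammalian siderophore, fell by 1.83, and Slc22a17, a receptor for the Lcn2 protein, fell by 0.98. In cisplatin+PCN against cisplatin both were higher, Bdh2 by 0.63 and Slc22a17 by 0.37, and Lcn2 did not pass.

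For each gene the protein-coding genes with the most similar pattern were taken by Pearson's r of log2(FPKM + 1) over the 12 libraries, as a description of libraries that share the same 4 groups. Fth1 was closest to Fgg (r = 0.997) and Cdc42se2 (r = 0.997), and Cp to Golm1 (r = 0.998) and Vars (r = 0.997). Trf was closest to Ppip5k1 (r = 0.991) and Tyro3 (r = 0.988), and Steap3 to Gatad1 (r = 0.989) and Slc35f1 (r = 0.987). Slc39a14 was closest to Paxbp1 (r = 0.987) and Slc1a5 (r = 0.974), Slc11a2 to Vmac and Hdac10, and Slc40a1 to Rab33b (r = 0.974) and Jade3 (r = 0.957). Ireb2 was closest to Yaf2 and Lrp6 (r = 0.951 for Lrp6), Ftl1 to Npl (r = 0.962) and Mpp1 (r = 0.936), and Tfrc to Luc7l3 (r = 0.924) and Fgf11 (r = 0.918). The best match was weakest for Tfrc.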

How the data were processed

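The authors deposited 1 table of FPKM for 52636 genes in 12 libraries. The submitters' processing notes list HISAT2 2.0.5 for alignment, featureCounts 1.5.0-p3 for counting, and DESeq2 1.16.1 and edgeR 3.18.1 with no role. Those notes name mm8, but 9 of the 10 genes have identical spans in GENCODE M21 on GRCm38; coordinates are given as deposited. Length times FPKM gave whole reads for 100% of nonzero values, within 0.001.

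From these values differences were tested with limma 3.58.1 (R 4.3.3, eBayes with trend, two-sided) on log2 of FPKM plus 1. Genes needed an FPKM of 1 or more in 3 or more libraries, which 13540 did. A model with 4 group means was fitted to all 12 libraries, with 6 comparisons adjusted separately. Replicates differed by more than sampling noise in all 12 pairs (chi-square per gene from 4.65 to 71.5). The procedure was also run on simulated counts with few changed genes and a fixed spread. These data differ in both respects, so that run does not bear on the calls given here. Alternatives were a pseudocount of 0.1, testing unfiltered genes or those averaging 5 FPKM or more, median-of-ratios rescaling, a fit to the groups compared alone, blocking on replicate number, limma-voom applied to recovered reads, and omitting each library in turn.

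The 10 genes, the 6 lists of other iron genes and the marker lists were chosen with earlier results of these data known. From those lists, up to 4 genes per list and comparison with the largest change among those that passed were named, and 2 genes of similar pattern per iron gene. Hamp and Ftl1-ps1 were named after their values were seen. Some genes that this rule names are left out of the text.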

Additional observations from a re-analysis of the deposited data

Results flagged for a closer look

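Among the marker and iron genes, the response to cisplatin differed between kidneys with and without PCN for Slc4a1, an anion exchanger of red cell precursors and of kidney intercalated cells. The difference in cisplatin+PCN against PCN minus that in cisplatin against control was 1.13 (SE 0.16, limma adjusted p = 0.0266). Slc4a1 averaged 3.28 ± 0.625 FPKM in cisplatin+PCN libraries, 1.16 ± 0.238 FPKM in cisplatin libraries, 9.89 ± 0.774 FPKM in PCN libraries and 11.1 ± 0.814 FPKM in control libraries (SD, n = 3 each).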

How the results depend on the processing

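The values of the 10 genes were recomputed under 19 other settings, which gave 1118 values, of which 1063 kept their side of the threshold, 43 lost a call, 12 gained one, and 0 called values changed sign. In cisplatin+PCN against cisplatin the count of called iron genes was 2, and it was 0 with no filter on low values, 0 in a fit of only the groups compared, 1 with limma-voom on the recovered reads and 3 with a mean FPKM of at least 5, where Fth1 was gained (limma adjusted p = 0.0405); the cause was not tested. Leaving out each library in turn gave 7 to 8 called genes in cisplatin against control, 0 in PCN against control, 0 to 3 in cisplatin+PCN against cisplatin, 5 to 9 in cisplatin+PCN against PCN (5 without PCN replicate 3), 6 to 9 in cisplatin+PCN against control and 0 in the test of a changed response. A replicate block left the counts at 7, 0, 2, 9, 7 and 0 in that order. Of 18 same-numbered pairs, 4 had correlated deviations over 0.1 (range -0.281 to 0.366). With 3 libraries a group these correlations cannot settle whether the numbers pair the libraries. Over all genes the block called 1675 in cisplatin+PCN against cisplatin, beside 2110. A mean FPKM of at least 5 left Trf and Steap3 untested. Limma-voom moved the median of all genes to 0.101 in cisplatin+PCN against PCN, beside 0.01. Depth limits Trf and Steap3 most.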
